A study of Homo sapiens with 3 samples.

Results

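The genes described here are 55 human DNA repair genes, chosen by name and sorted by the pathway in which their proteins act, out of 19974 protein-coding genes on chromosomes 1 to 22 and X. They comprise 10 genes of homologous recombination, 11 of the Fanconi anemia pathway, 12 of damage signalling, 5 of end joining, 3 of mismatch repair, 6 of base excision and single-strand break repair and 8 of nucleotide excision repair. At these genes CUT&Tag mapped H3K27ac, the acetylated lysine 27 of histone H3 that is found at promoters and enhancers in use, a method in which antibody-bound chromatin is cut and tagged by a tethered transposase. The cells were A2780, a human ovarian carcinoma line, in 3 libraries with 1 library per group: H3K27ac after the BPP peptide (BPP), said in the design text to compete at the site where BIN2 is phosphorylated; H3K27ac in control cells (CTR); and a background library with IgG (IgG). The sources used here do not say what the CTR cells received. No agent other than BPP is named for these libraries, and nothing is said of separate cultures.

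Cells mend broken or altered DNA by several routes. Homologous recombination copies an intact sister strand to repair a double-strand break, the Fanconi anemia proteins unhook DNA crosslinks and hand the break to recombination, and end joining ligates broken ends directly. Mismatch repair corrects replication errors, base excision repair replaces single damaged bases, and nucleotide excision repair removes bulky lesions, among them those of ultraviolet light and platinum drugs. Damage signalling kinases and chromatin-binding proteins report the break and halt the cell cycle. In ovarian carcinoma, loss of homologous recombination genes is known for sensitising cells to platinum drugs and to inhibitors of PARP enzymes.

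The deposited lists held 17841 BPP, 14836 CTR and 7701 IgG peaks on the chromosomes used, and their read numbers are not stated in the sources used here. Depth is therefore unknown, and a place without a listed peak can hold signal that fell short of the caller's threshold. The fold and the −log10 q printed below are the authors' values for each peak within its own list, so values of different lists stand side by side without a comparison of acetylation. Since each group is 1 library, differences have no replicate check and no test was run between libraries. Of 8 ovarian carcinoma and epithelial markers, KRT8, KRT18 and MSLN had a gene-end peak in BPP and KRT8 and KRT18 in CTR, while PAX8, WT1, EPCAM, MUC16 and CDH1 had none in either H3K27ac list. None of 4 blood and 4 fibroblast markers had a gene-end peak in any list.

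Most of the repair genes carried an H3K27ac peak at a gene end, meaning a peak that overlaps the 1 kb on either side of an end of the RefSeq gene span. In BPP 38 of 55 genes had one (69.1%, 95% Wilson interval 55.97 to 79.7), 31 genes had one in CTR (56.4%, 43.3 to 68.6), and 5 had one in IgG (9.09%, 3.95 to 19.6). Among all protein-coding genes the shares were 30.6% in BPP, 31.2% in CTR and 2.13% in IgG. By class, 26 repair genes had such a peak in both H3K27ac lists, 12 in BPP only, 5 in CTR only and 12 in neither, against 23.6%, 7.03%, 7.57% and 61.8% of all protein-coding genes. Of the 43 marked repair genes, 60.5% were marked in both lists (45.6 to 73.6), a share near the 61.7% of all marked protein-coding genes. The BPP-only share of the marked genes was 27.9% (16.7 to 42.7) beside 18.4% for all marked genes, and the CTR-only share was 11.6% (5.07 to 24.5) beside 19.8%. Both of these background shares lie inside the intervals of the repair genes, which cover counting error only. With peaks of fold 5 or more the repair genes had 6 in BPP only and 7 in CTR only, so the order of these 2 classes depends on the threshold.

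**Figure D1:**
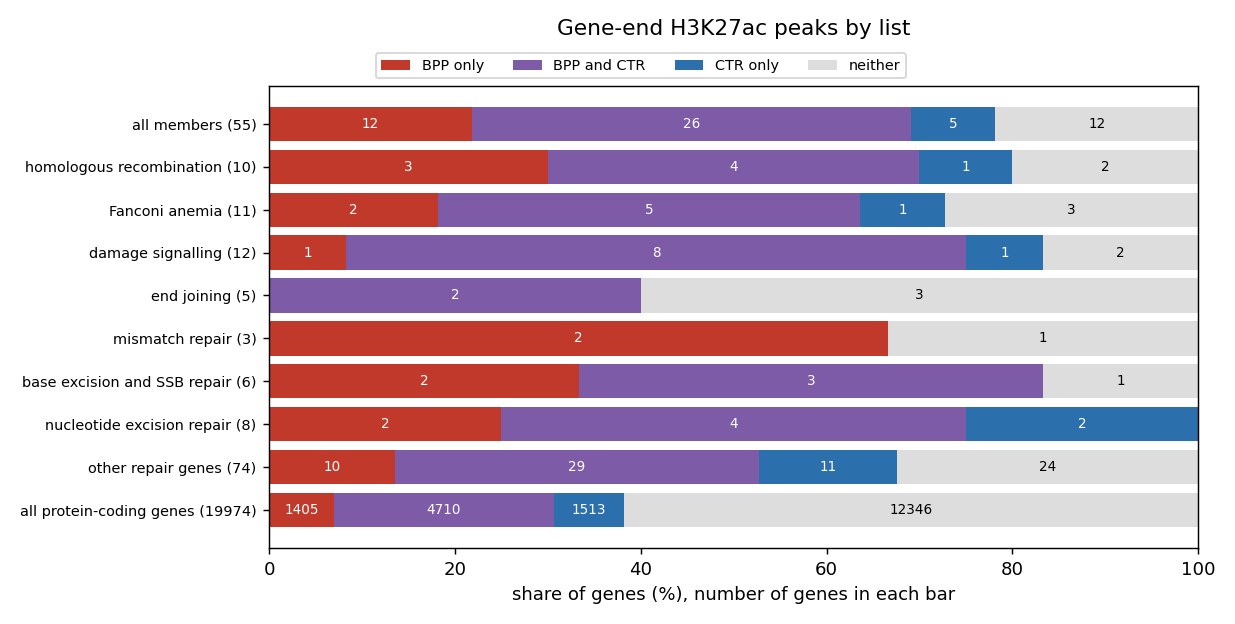
Share of genes with a gene-end H3K27ac peak in BPP only, in BPP and CTR, in CTR only and in neither list, for the repair genes, for each pathway, for 74 further repair genes and for all protein-coding genes; numbers in the bars are genes. Nucleotide excision repair has no gene in the grey class, whereas 3 of 5 end joining genes are grey.

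By pathway, a gene-end peak in at least 1 H3K27ac list was found at 8 of 8 nucleotide excision genes (67.6 to 100%), 10 of 12 damage signalling genes (55.2 to 95.3%), 5 of 6 base excision genes (43.6 to 96.99%), 8 of 10 recombination genes (49.0 to 94.3%), 8 of 11 Fanconi genes (43.4 to 90.3%), 2 of 3 mismatch genes (20.8 to 93.9%) and 2 of 5 end joining genes (11.8 to 76.9%). Among all protein-coding genes this share was 38.2%, which lies inside the intervals of end joining and mismatch repair and below those of the other 5 pathways. All 7 intervals overlap, so the order of the pathways is a description of these lists. Damage signalling had the largest count marked in both lists, at 8 of 12, and mismatch repair had none of 3, with its 2 marked genes in BPP only. Among genes with a gene-end peak, the median −log10 q of the strongest one was 11.04 in BPP and 10.6 in CTR for the repair genes, close to 9.82 and 9.55 for all protein-coding genes. Median folds were 4.99 in BPP and 5.47 in CTR for the repair genes, against 5.02 and 5.25 for all.

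**Figure D2:**
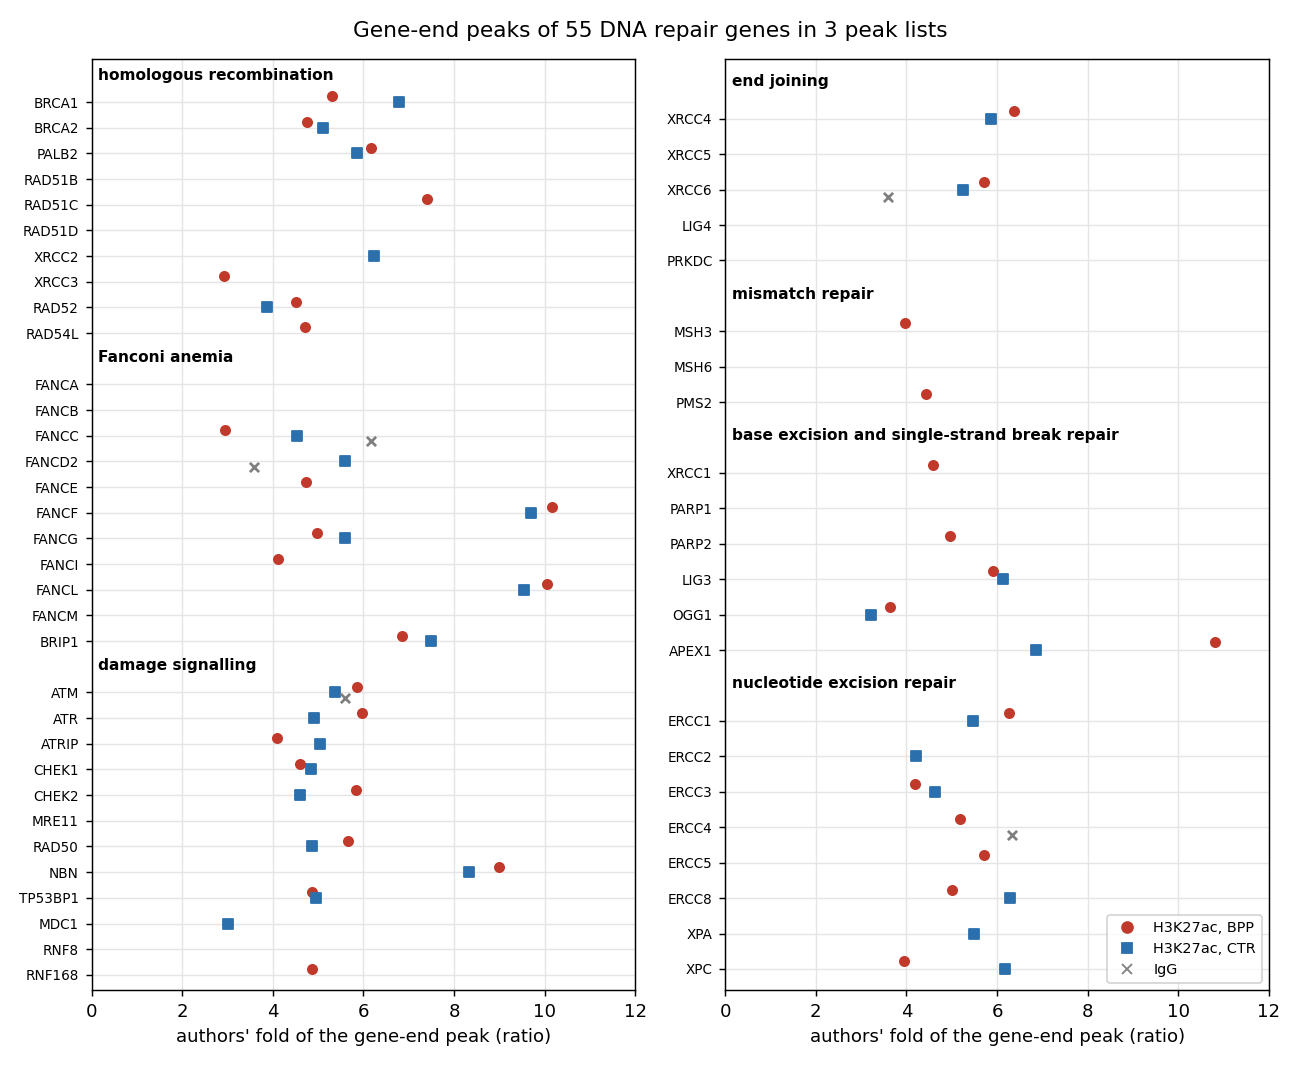
The authors' fold (a ratio whose background the files leave unstated) of the gene-end peak with the highest −log10 q, for each of the 55 repair genes by pathway, in BPP (red circles), CTR (blue squares) and IgG (grey crosses); a gene without a symbol has no gene-end peak in that list. FANCF, FANCL and NBN stand at the high end in BPP and in CTR and APEX1 in BPP, and gene-end IgG peaks appear at 5 genes.

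The promoters below show what lies upstream of the annotated starts that carried the strongest calls of each class. The first 3 are those with the highest −log10 q among genes with a start peak in both lists (APEX1, BRCA1, FANCF), then 2 with a start peak in BPP only (RAD52, RAD51C) and 2 in CTR only (FANCD2, XRCC2). Each is the 250 bases before the RefSeq start on the gene's strand (RefSeq sequences, GRCh38.p14), and capitals mark matches on either strand to the searched motifs. The BRCA1 stretch lies before its outermost RefSeq start, 82 bp from the start of NBR1. It is not the region beside NBR2, the neighbour of the main BRCA1 transcripts, where both lists also held a peak 44.3 kb inside the gene.
APEX1: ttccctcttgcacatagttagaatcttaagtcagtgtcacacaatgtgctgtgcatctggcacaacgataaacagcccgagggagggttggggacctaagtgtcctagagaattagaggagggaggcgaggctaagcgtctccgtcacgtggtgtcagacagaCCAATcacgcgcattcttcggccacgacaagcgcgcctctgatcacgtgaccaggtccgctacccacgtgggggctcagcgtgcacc
BRCA1: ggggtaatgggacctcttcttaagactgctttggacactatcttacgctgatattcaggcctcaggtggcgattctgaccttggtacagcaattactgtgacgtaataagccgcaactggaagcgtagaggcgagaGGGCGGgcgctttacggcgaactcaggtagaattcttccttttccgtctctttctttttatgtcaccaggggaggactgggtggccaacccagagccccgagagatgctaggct
FANCF: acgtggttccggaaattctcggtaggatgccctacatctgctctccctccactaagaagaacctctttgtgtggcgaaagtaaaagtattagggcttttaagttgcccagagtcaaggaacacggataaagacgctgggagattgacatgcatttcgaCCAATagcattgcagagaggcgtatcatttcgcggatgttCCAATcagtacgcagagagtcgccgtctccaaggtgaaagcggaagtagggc
RAD52: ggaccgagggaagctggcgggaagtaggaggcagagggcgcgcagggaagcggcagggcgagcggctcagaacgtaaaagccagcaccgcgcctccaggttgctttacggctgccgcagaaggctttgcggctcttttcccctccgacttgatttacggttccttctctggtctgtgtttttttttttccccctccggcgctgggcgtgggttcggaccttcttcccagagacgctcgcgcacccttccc
RAD51C: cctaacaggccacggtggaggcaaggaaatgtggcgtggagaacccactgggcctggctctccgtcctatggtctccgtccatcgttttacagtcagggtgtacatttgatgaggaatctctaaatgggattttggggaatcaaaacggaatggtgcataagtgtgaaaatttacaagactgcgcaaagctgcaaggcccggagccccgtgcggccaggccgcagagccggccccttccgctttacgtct
FANCD2: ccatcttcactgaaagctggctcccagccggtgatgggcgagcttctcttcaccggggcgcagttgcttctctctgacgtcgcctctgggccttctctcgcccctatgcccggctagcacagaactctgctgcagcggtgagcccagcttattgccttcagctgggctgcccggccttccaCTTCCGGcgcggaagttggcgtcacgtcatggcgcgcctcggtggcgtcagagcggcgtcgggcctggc
XRCC2: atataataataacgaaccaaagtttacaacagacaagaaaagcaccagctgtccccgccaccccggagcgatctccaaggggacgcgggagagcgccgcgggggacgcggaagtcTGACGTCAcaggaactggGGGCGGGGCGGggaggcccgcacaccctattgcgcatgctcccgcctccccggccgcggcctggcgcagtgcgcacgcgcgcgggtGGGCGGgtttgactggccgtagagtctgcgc
They lie at chr14:20454976-20455225 (plus strand), chr17:43170328-43170577 (minus), chr11:22625824-22626073 (minus), chr12:949695-949944 (minus), chr17:58692323-58692572 (plus), chr3:10026187-10026436 (plus) and chr7:152676142-152676391 (minus). All 250 bases of the APEX1 and BRCA1 stretches fell inside the gene's BPP and CTR peaks and all 250 of RAD52 inside its BPP peak. The FANCF stretch had 99 bases inside the BPP peak and 20 inside the CTR peak, RAD51C 112 in BPP and FANCD2 226 in CTR. The XRCC2 peak in CTR lay wholly on the gene side of the start and held none of the 250 bases.

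The motifs searched in these windows were the GC box GGGCGG, the CCAAT box CCAAT, the ETS core CCGGAAG, the E2F forms TTTGGCGC and TTTCCCGC, the NRF1 motif, the CRE TGACGTCA and TATAAA. The APEX1 stretch held 1 CCAAT match, FANCF 2 CCAAT matches, BRCA1 1 GC box, FANCD2 1 ETS core, and XRCC2 3 GC boxes, 2 of them in a single run of capitals, and 1 CRE. RAD52 and RAD51C held none of the motifs. Over the 51 repair promoters in the table, a GC box was present in 68.6%, a CCAAT box in 45.1%, an ETS core in 25.5%, an E2F form in 5.88%, a CRE in 5.88% and NRF1 and TATAAA in none. Over all 15813 protein-coding promoters in the table the shares were 55.98%, 34.4%, 11.8%, 2.599%, 2.32%, 1.49% for NRF1 and 9.25% for TATAAA. Of these 15813 promoters, 6036 had a BPP or CTR peak at the start. Among them the GC box was present in 67.1%, the CCAAT box in 36.9% and the ETS core in 20.1%. An E2F form was present in 3.66%, the CRE in 3.50%, NRF1 in 2.62% and TATAAA in 5.07%. The repair promoters had a median GC content of 63.6% and a median CpG observed over expected ratio of 0.854, against 62.4% and 0.737 for all. For the 6036 with a BPP or CTR start peak the values were 64% and 0.839, close to those of all 51 repair promoters, marked or not. By start class, the repair promoters had 61.8% and 0.841 (both lists), 64.2% and 0.940 (BPP only) and 64.4% and 0.849 (CTR only). The 12 repair promoters with no start peak had 71.8% and 0.879, against 60.4% and 0.598 for the 9777 protein-coding promoters without one. This difference was not tested. These matches are descriptions of letters, not of bound sites.

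Homologous recombination was marked at BRCA1, BRCA2, PALB2 and RAD52 in both lists, at RAD51C, RAD54L and XRCC3 in BPP only and at XRCC2 in CTR only. BRCA1, which promotes resection of broken ends and loading of the recombinase, had its highest peak at the outermost RefSeq start, with a fold of 5.31 and −log10 q of 17.9 in BPP (chr17:43169630-43171075) and 6.79 and 23.3 in CTR (chr17:43169499-43171362). That place is also a window of NBR1, whose start lies 82 bp away in the opposite direction. Inside the span, 44.3 kb from that start, a BPP peak (fold 4.61; chr17:43125681-43126287) overlapped a CTR peak (fold 4.10), in the window of NBR2, the gene known to lie head to head with the main BRCA1 transcripts. A further BPP peak in that window (fold 4.24; chr17:43124830-43125340) lay 0.309 kb from the nearest CTR peak. BRCA2, which delivers the recombinase to DNA, had weak peaks in both lists, with −log10 q of 4.81 in BPP and 5.30 in CTR. PALB2, the partner that joins BRCA1 to BRCA2, had folds of 6.16 in BPP and 5.87 in CTR, with −log10 q of 13.6 and 12.5, over a start it shares with DCTN5 at 156 bp.

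RAD51C, a paralog of the recombinase, had a BPP peak of fold 7.40 and −log10 q 15.9 at its start (chr17:58692461-58693040), and the nearest CTR peak was 12.3 kb away. RAD54L, a motor protein of strand exchange, had a BPP peak of fold 4.72 (chr1:46247733-46248140) with the nearest CTR peak 18.6 kb away, inside the gene. XRCC2, another recombinase paralog, had a CTR peak of fold 6.23 and −log10 q 9.80 (chr7:152675832-152676129), and the nearest BPP peak lay 89.7 kb away. The XRCC3 call in BPP was at the far end of the gene (fold 2.91; chr14:103697645-103698483), not at its start. Near the start both lists held overlapping peaks just outside the window, 1.26 kb inside the gene in BPP (fold 3.82, −log10 q 12.95) and 1.25 kb in CTR (fold 2.97, −log10 q 5.73). In all XRCC3 held 3 BPP and 2 CTR inside peaks, every one overlapping the other list.

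RAD52, which anneals single strands, counted as marked in both lists through peaks at its outermost end, in the window of ERC1. Its annotated start lies 41428 bp inside that end, and there a peak was called in BPP only, with a fold of 6.03 and −log10 q of 18.1 (chr12:949160-950116). The nearest CTR peak was 40.5 kb from it. All 3 BPP peaks inside RAD52 lacked a CTR partner. RAD51D, a recombinase paralog, had no peak in any list over its span, with the nearest BPP and CTR peaks 2.33 and 2.30 kb beyond it. RAD51B had none at its ends but many inside, described further on.

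The Fanconi anemia pathway was marked in both lists at FANCC, FANCF, FANCG, FANCL and BRIP1, in BPP only at FANCE and FANCI, and in CTR only at FANCD2. FANCF, an adaptor of the core ubiquitin ligase complex, had a fold of 10.2 and −log10 q of 20.5 in BPP (chr11:22625207-22625922) and 9.70 and 17.6 in CTR (chr11:22625229-22625843). FANCL, the ligase subunit itself, gave folds of 10.1 in BPP and 9.54 in CTR, with −log10 q of 17.7 and 16.8. BRIP1, a helicase that binds BRCA1, gave 6.85 and 7.5001, and FANCG, another core subunit, 4.97 and 5.60. At these 4 genes the BPP and CTR peaks overlapped each other and no IgG peak lay at a gene end.

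FANCD2, the protein that the core complex ubiquitinates, had a CTR peak of fold 5.60 and −log10 q 10.4 at its start (chr3:10026044-10026412). The nearest BPP peak was 82.3 kb away. FANCI, its partner in the clamp, had a weak BPP peak at its lower-coordinate end (fold 4.11, −log10 q 4.09; chr15:89244049-89244423), and the nearest CTR peak lay 126 kb away. No strand was given for FANCI in the promoter table.

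The FANCE call in BPP rested on the edge of the window. Its peak (fold 4.73, −log10 q 19.3; chr6:35468031-35469095) began 0.929 kb beyond the far end of FANCE, a core complex subunit, in the window of the ribosomal protein gene RPL10A. It overlapped a CTR peak that did not reach the FANCE window, so the same place was called in both lists. FANCC, another core subunit, was marked in both lists, but its BPP peak (fold 2.95, −log10 q 3.46) and its CTR peak (fold 4.52, −log10 q 9.79) lay 0.442 kb apart, and the CTR peak overlapped an IgG peak of fold 6.16. FANCA and FANCM had peaks inside the span in BPP only, 2 and 1, and none at an end. Both H3K27ac lists held a peak 1.32 kb from the FANCM start, just outside the window. FANCB had no peak within 462 kb in BPP and 620 kb in CTR.

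Damage signalling genes were marked in both lists at ATM, ATR, ATRIP, CHEK1, CHEK2, RAD50, NBN and TP53BP1. ATM, the kinase activated by double-strand breaks, had folds of 5.85 in BPP and 5.38 in CTR, and an IgG peak of fold 5.59 and −log10 q 3.73 overlapped both. The start of ATM lies 429 bp from that of NPAT. ATR, the kinase of stalled replication forks, had folds of 5.97 and 4.92 with −log10 q of 12.02 and 7.38. Its partner ATRIP was called only at its far end (−log10 q 31.9 in BPP and 33.8 in CTR), a place that also lies in the window of the nuclease gene TREX1. The effector kinase CHEK2 had folds of 5.84 in BPP and 4.603 in CTR, and CHEK1, the effector of ATR, had 4.61 and 4.85.

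The MRN complex holds and senses broken ends. NBN had the highest values of the 3 subunits, with a fold of 9.0002 and −log10 q of 25.9 in BPP (chr8:89983723-89984580) and 8.33 and 23.3 in CTR (chr8:89983518-89984698), at its higher-coordinate end. RAD50 had folds of 5.66 in BPP and 4.87 in CTR. MRE11 counted as unmarked at its gene ends, but its annotated start lies 18568 bp inside the span, and there it had overlapping peaks of fold 5.70 in BPP (chr11:94493473-94494359) and 7.10 in CTR (chr11:94493362-94494380). That start is 140 bp from the start of ANKRD49.

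Of the proteins that spread the signal on chromatin, TP53BP1, which favours end joining, was marked in both lists with folds of 4.85 in BPP and 4.96 in CTR, and held 3 BPP and 1 CTR peaks inside the gene, with 1 place shared. The ubiquitin ligase gene RNF168 had a peak in BPP only (fold 4.87, −log10 q 11.4; chr3:196503162-196504018), with the nearest CTR peak 128 kb away. MDC1, which binds phosphorylated histone H2AX, had a peak in CTR only with low values (fold 3.02, −log10 q 3.06), and the nearest BPP peak lay 25.8 kb from its span. RNF8, the ligase that acts before RNF168, had no peak in any list over its span, and the closest BPP peak was 95.7 kb and the closest CTR peak 38.6 kb from it.

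End joining was marked at XRCC4 and XRCC6 in both lists. XRCC4, the scaffold of the ligase, had folds of 6.37 in BPP and 5.87 in CTR over a start 153 bp from that of TMEM167A. XRCC6, a subunit of the Ku end-binding heterodimer, had folds of 5.71 in BPP and 5.25 in CTR over a start 252 bp from that of DESI1, and an IgG peak of fold 3.58 lay at its far end. XRCC5, the other Ku subunit, had 1 peak inside the span in BPP only (fold 4.77) and none at its ends. LIG4, the ligase of this pathway, had no peak over its span in any list, and the nearest lay 2407 kb away in BPP and 2398 kb in CTR. PRKDC, the DNA-dependent protein kinase, had inside peaks only.

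Of the 3 mismatch repair genes, MSH3 and PMS2 had gene-end peaks, both in BPP only. Among 4 further mismatch genes the marked one, PMS1, had start peaks in both lists, with folds of 6.33 in BPP and 6.18 in CTR. MSH3, which recognises insertion and deletion loops, had a BPP peak of fold 3.98 and −log10 q 4.58 at its start (chr5:80654199-80654499), and no CTR peak within 13.1 kb. Further in, 13.1 kb from the gene end, a BPP peak of fold 4.64 overlapped a CTR peak of fold 4.74. PMS2, the endonuclease subunit, had a BPP peak of fold 4.43 and −log10 q 9.30 over its start (chr7:6008844-6009456), 166 bp from that of AIMP2, and the nearest CTR peak was 6.54 kb away. Because PMS2 has close sequence copies elsewhere, reads at its far part may be misplaced. MSH6, which recognises base mismatches, had no peak over its span, with the nearest 37.8 kb away in BPP and 37.5 kb in CTR.

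Base excision repair held the gene-end peak of highest fold and −log10 q among the 55 genes in BPP, at APEX1. In CTR the highest fold was at FANCF and the highest −log10 q at ATRIP. APEX1, the endonuclease that cuts at abasic sites, had a fold of 10.8 and −log10 q of 72.7 in BPP (chr14:20454640-20455532) and 6.85 and 29.4 in CTR (chr14:20454580-20455544). These peaks rank within the first 0.925% of the BPP list and the first 4.46% of the CTR list by −log10 p. Both summits lie upstream of the APEX1 start, at -0.322 kb, towards OSGEP, whose start is 414 bp away. LIG3, the ligase of single-strand break repair, had folds of 5.91 in BPP and 6.13 in CTR, and OGG1, which removes oxidised guanine, 3.63 and 3.21. PARP2, a sensor of DNA breaks, had a BPP peak only (fold 4.97, −log10 q 9.75; chr14:20342510-20343515), in the window of the RNA gene RPPH1, with no CTR peak within 40.1 kb. XRCC1, the scaffold of single-strand break repair, also had a BPP peak only (fold 4.58, −log10 q 8.22; chr19:43575183-43575588), and the nearest CTR peak lay 15.9 kb from its span. PARP1, the main PARP enzyme, had no gene-end peak, and its peaks lay inside the span, from 4.55 kb of the gene end in BPP (fold 3.27) and from 3.18 kb in CTR (fold 3.32).

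Nucleotide excision repair was marked in both lists at ERCC1, ERCC3, ERCC8 and XPC, in BPP only at ERCC4 and ERCC5, and in CTR only at ERCC2 and XPA. ERCC1, the partner of the 5′ nuclease, had gene-end peaks at both ends. The stronger, at the far end and in the windows of POLR1G and PPP1R13L, had a fold of 6.27 and −log10 q of 39.0 in BPP (chr19:45405851-45406882) and 5.47 and 23.7 in CTR (chr19:45406094-45406810). At its start the folds were 3.41 and 2.63 for 2 BPP peaks and 3.05 for the CTR peak that spans them. Peaks inside ERCC1 reached −log10 q of 17.6 in BPP and 19.4 in CTR. XPC, which detects lesions across the genome, had folds of 3.94 in BPP and 6.17 in CTR, and ERCC8, a ligase subunit of transcription-coupled repair, 5.02 and 6.28. The ERCC3 peaks of BPP and CTR (folds 4.19 and 4.63) lay 0.076 kb apart without overlap.

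ERCC4, the catalytic 5′ nuclease subunit, had a BPP peak of fold 5.18 and −log10 q 5.74 (chr16:13920129-13920518) that overlapped an IgG peak of fold 6.32 and −log10 q 4.99. Without H3K27ac peaks that overlap IgG this call is lost. ERCC5, the 3′ nuclease, had a BPP peak of fold 5.70 (−log10 q 6.52; chr13:102845732-102846429), with the nearest CTR peak 71.4 kb away and no IgG peak within 60.2 kb. XPA, which verifies the lesion, had a CTR peak of fold 5.48 and −log10 q 9.49 at its start (chr9:97696918-97697406) and a BPP peak of fold 6.75 inside the gene, 8.85 kb away. The helicase subunit ERCC2 had a CTR peak of fold 4.20 and −log10 q 8.08 at its start (chr19:45370187-45370565), with a BPP peak of fold 3.82 inside the gene 5.47 kb away.

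Counted by place rather than by gene, 27 of 40 BPP gene-end peaks of the repair genes overlapped a CTR peak (67.5%, 52.02 to 79.9), while a BPP partner was present for 25 of 32 CTR peaks (78.1%, 61.2 to 88.98). Over all protein-coding genes the shares were 69.9% and 69.6%. Of the 26 genes marked in both lists, 24 had BPP and CTR peaks that overlapped each other. Of the 12 BPP-only genes, 1 had a CTR peak within 1 kb of its peak, namely FANCE, where the BPP and CTR peaks overlapped. Within 10 kb 3 had one, and the largest gap was 387 kb, at ERCC4. None of the 5 CTR-only genes had a BPP peak within 1 kb and 2 had one within 10 kb, with the largest gap of 89.7 kb at XRCC2. The median −log10 q of the BPP-only genes was 9.43, from 4.09 at FANCI to 19.3 at FANCE, against 12.2 in BPP for the genes marked in both lists. For all protein-coding genes these medians were 6.49 and 11.4. The 5 CTR-only genes had a median of 9.49, from 3.06 at MDC1 to 10.4 at FANCD2, against 11.0 in CTR for the genes marked in both lists. The corresponding CTR medians for all protein-coding genes were 7.07 and 10.8.

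Where the start was known, more repair genes had a peak at the start than at the far end. For 51 genes the RefSeq promoter table gave a start, and a BPP peak lay within 1 kb of it at 34 (66.7%, 52.97 to 78.03), a CTR peak at 29 (56.9%, 43.3 to 69.5) and an IgG peak at 3 (5.88%, 2.02 to 15.9). The same shares for the 15813 protein-coding genes with a start in the table were 30.2%, 32.1% and 1.35%. The start counts include RAD52 in BPP and MRE11 in both H3K27ac lists, whose start peaks lie 41428 and 18568 bp inside the span and not at a gene end. At the far end a peak was found at 4 genes in BPP (XRCC3, FANCE, ATRIP and ERCC1) and at 2 in CTR (ATRIP and ERCC1). The far-end share of all protein-coding genes was not counted, so these far-end counts have no background beside them. By start, 24 genes were marked in both lists, 10 in BPP only, 5 in CTR only and 12 in neither. Summits of the 35 BPP start peaks lay from -0.488 kb (upstream) to 1.06 kb inside the gene, with a median 0.107 kb inside, and those of the 29 CTR peaks from -0.646 kb to 0.457 kb, with a median of 0.096 kb.

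**Figure D3:**
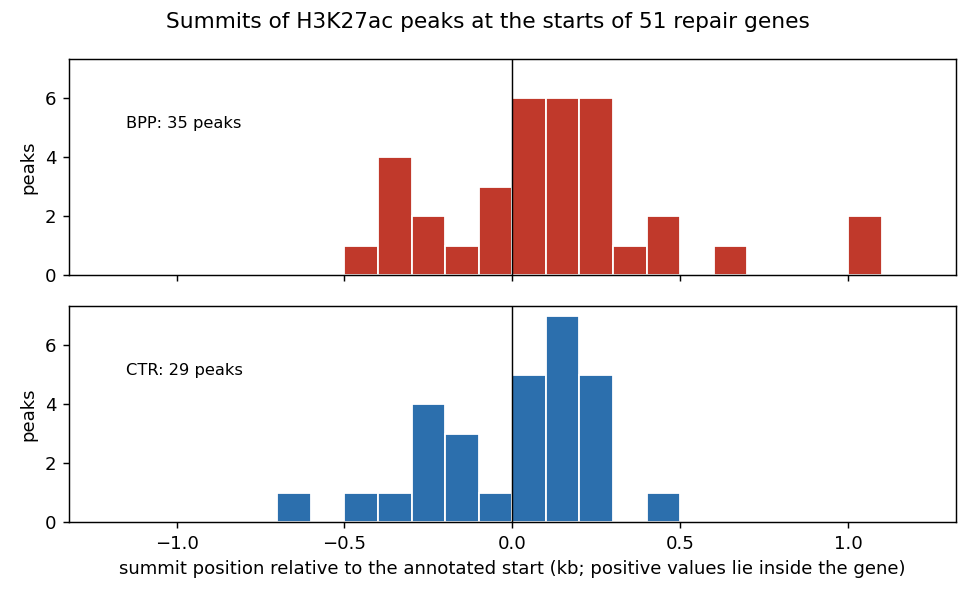
Number of H3K27ac peaks at the annotated starts of 51 repair genes by the position of the summit, in kb from the start, for BPP (upper) and CTR (lower); positive values lie inside the gene. Of the summits, 24 of 35 in BPP and 18 of 29 in CTR lie on the gene side.

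Repair genes often share their start region with a neighbour. Of the 51 genes with a start in the table, 17 (33.3%, 21.97 to 47.03) had a protein-coding neighbour that starts in the opposite direction no more than 1 kb upstream, against 10.3% of all 15813 genes (9.84 to 10.8). Among genes with a BPP or CTR start peak the shares were 35.9% (22.7 to 51.6) and 19.5% (18.5 to 20.5), and the interval of the repair genes again lies above the background. The distances ran from 43 bp, between LIG4 and ABHD13, to 528 bp, between RAD51C and IGBP1C, and the other pairs not yet named are XPC with LSM3, ERCC8 with NDUFAF2, BRCA2 with ZAR1L, XRCC3 with ZFYVE21, TP53BP1 with MAP1A, CHEK2 with HSCB and FANCB with MOSPD2. In BPP, 21 of the 38 marked repair genes had a gene-end peak that also reached a window of another protein-coding gene (55.3%, 39.7 to 69.9), against 38.7% of all marked genes. In CTR it was 16 of 31 (51.6%, 34.8 to 68.03), against 37.2%. Peaks cannot be assigned to a single gene of such a pair. Of the 17 repair genes whose windows reach no other coding gene's window, 4 were marked in both lists, 3 in BPP only, 4 in CTR only and 6 in neither. The share of protein-coding genes with equally separate windows was not counted, so these numbers have no background beside them.

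Counted over the gene span with its 1 kb flanks, 35 repair genes had a peak in both H3K27ac lists, 12 in BPP only, 3 in CTR only and 5 in neither (RAD51D, FANCB, RNF8, LIG4 and MSH6). Counted by list, 47 of the 55 had one in BPP and 38 in CTR, against 44.9% and 42.3% of all protein-coding genes. Span counts depend on gene length, and the median span was 43.0 kb for the repair genes and 24.2 kb for all protein-coding genes. These shares were not matched for length. By class all protein-coding genes gave 34.9%, 10.1%, 7.4% and 47.7%. IgG had a peak over the span or flanks of 9 of the 55 repair genes, against 14.6% of all. Away from the gene ends there were 56 BPP, 38 CTR and 7 IgG peaks, or 1.22, 0.829 and 0.153 per 100 kb of span. All protein-coding genes had 0.662, 0.459 and 0.258. RAD51B and PRKDC together held 21 of the 56 peaks in BPP and 22 of the 38 in CTR. Without these 2 genes the density was 0.991 in BPP and 0.453 in CTR, so that the CTR value no longer exceeded that of all genes. No genes rich in inside peaks were taken out of the background, so this comparison is uneven. Among genes with a gene-end peak in BPP or CTR, the repair genes had 1.02 inside peaks per 100 kb in BPP and 0.420 in CTR, against 0.965 and 0.632 for all such protein-coding genes. On that footing the BPP density was near the background and the CTR density lay below it. RAD51B and PRKDC have no gene-end peak, so this comparison leaves out the same 2 genes and is not a separate check.

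RAD51B, a recombinase paralog with a span of 863 kb, held 15 BPP, 14 CTR and 1 IgG peaks inside the gene and none at its ends. No other protein-coding gene overlaps this span. Of these, 8 BPP peaks overlapped CTR peaks and 8 CTR peaks overlapped BPP peaks, and −log10 q ran from 3.70 to 14.8 in BPP and from 4.36 to 13.01 in CTR. The highest BPP peak by −log10 q had a fold of 7.58 (chr14:68075153-68075949), and the highest CTR peak by −log10 q had 6.08 (chr14:67932474-67933572). PRKDC, with a span of 187 kb, held 6 BPP, 8 CTR and 2 IgG peaks inside, of which 3 in each H3K27ac list overlapped the other. Its strongest was at the same place in both lists, with a fold of 7.15 and −log10 q of 23.6 in BPP (chr8:47841144-47842306) and 5.88 and 15.2 in CTR (chr8:47841243-47842295). FANCC held 5 BPP and 3 CTR inside peaks with 1 overlap, and ERCC1 held 5 and 2, with both CTR peaks overlapped. Their −log10 q ran from 3.43 to 11.7 in BPP and 4.07 to 16.2 in CTR for FANCC. For ERCC1 it ran from 4.04 to 17.6 in BPP and from 15.4 to 19.4 in CTR.

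**Figure D4:**
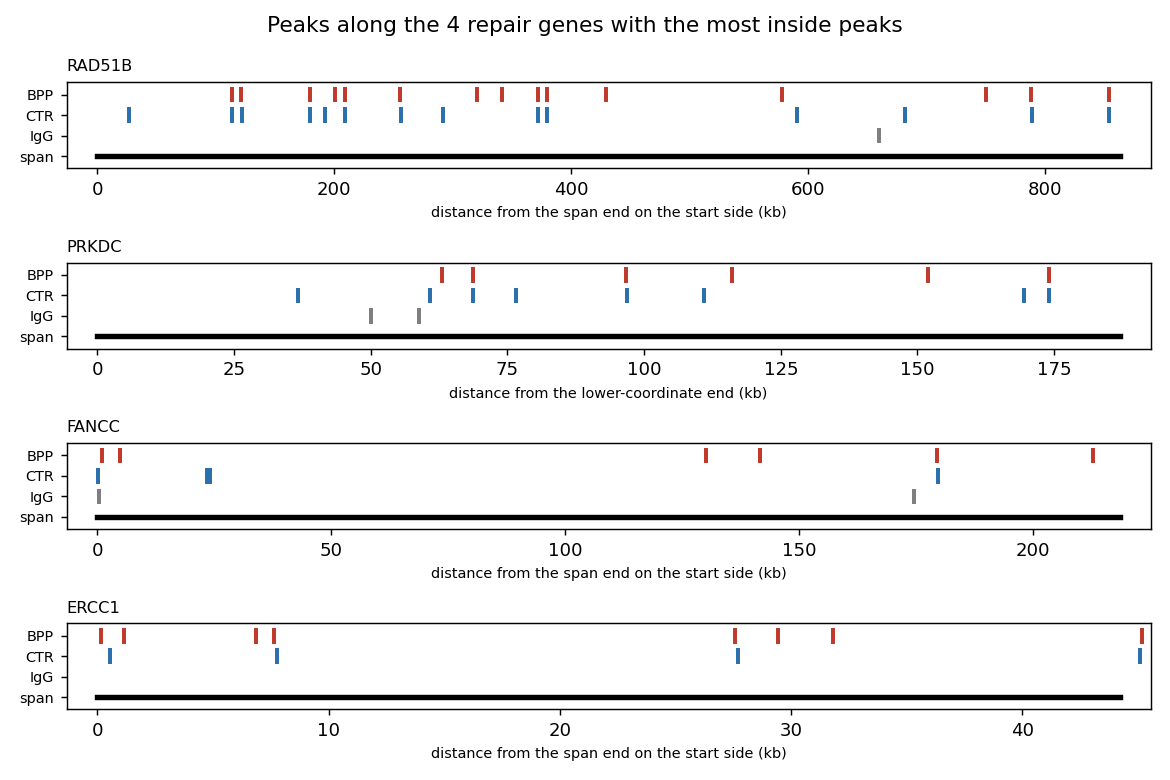
Positions of all BPP (red), CTR (blue) and IgG (grey) peaks along the 4 repair genes with the most inside peaks, in kb from the end of the RefSeq span on the start side (for PRKDC, whose strand was not in the table, from the lower-coordinate end); the black bar is the span and tick width is not to scale. In RAD51B the BPP and CTR ticks coincide at 8 places, and neither list has a tick at the ends of RAD51B or PRKDC.

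IgG background reached 5 repair genes at a gene end: FANCC, ATM and ERCC4 at the start, and FANCD2 and XRCC6 at the far end. The 9.09% stands beside 2.13% of all protein-coding genes. Folds ran from 3.58 at FANCD2 and XRCC6 to 6.32 at ERCC4, with −log10 q from 2.203 to 4.99. At ATM the IgG peak overlapped both H3K27ac peaks, at FANCC the CTR peak and at ERCC4 the BPP peak. At these 3 starts, the part of background signal in the H3K27ac calls was not tested. Inside genes, IgG peaks lay in RAD51B (fold 5.53), FANCC (4.29), ATM (5.68), MRE11 (3.58), TP53BP1 (3.58) and PRKDC (3.58 and 5.79).

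A list of 74 further genes of the same 7 pathways was counted in the same way. Gene-end peaks were found at 39 of them in BPP, at 40 in CTR and at 3 in IgG. By class 29 were marked in both H3K27ac lists, 10 in BPP only, 11 in CTR only and 24 in neither. The BPP-only and CTR-only counts were thus near each other here, beside 12 and 5 among the 55 genes; the difference between the 2 gene lists was not tested. In BPP only were EXO1, a nuclease of end resection (fold 6.43; chr1:241847950-241848557), HUS1, a clamp subunit (fold 8.21), MBD4, a glycosylase (fold 5.52), and the lesion sensor DDB2 (fold 4.45, with an IgG peak 0.223 kb away). In CTR only were the BRCA1 partner BARD1 (fold 4.23; chr2:214809488-214810027), the polymerase of alternative end joining POLQ (fold 5.77), H2AX (fold 4.14) and SHLD2 (fold 7.12, −log10 q 20.7).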

How the data were processed

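The data are peak lists from 3 CUT&Tag libraries of A2780 cells, whose groups follow the sample titles. The labels' protocols describe thawing of stored cells and library making with a commercial kit. The submitters' processing notes name GRCh38.p13 (hg38), deepTools 3.3.0, Bowtie2 2.4.1 and fastp. Which peak caller was used, and whether IgG served as its control, is not given in the sources used here.

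Each library has its own list. In all rows the deposited score is 10 times the −log10 p without its decimals. The deposited −log10 p and −log10 q come from the authors' caller, and the deposited fold is a ratio whose background the files leave unstated. No −log10 p lies below 5. The lists give no counts, so depth is unknown.

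Peaks were joined, from 1 bp of overlap, to 1 kb windows at both ends of genes in an NCBI RefSeq table (GRCh38.p14, which shares chromosome coordinates with p13). Starts and strands came from the RefSeq promoter table, in which 51 of 55 genes matched; FANCI, NBN, XRCC5 and PRKDC are named without sequence. Positions are counted from 1. Wilson intervals (95%) treat genes as independent and cover counting error only. Peak values or distances are given mainly for genes called in 1 H3K27ac list or by IgG, for the strongest call of each pathway, for calls at both ends and for genes with 3 or more inside peaks. Not every value of every list is printed for these genes. The members, pathways and lists were chosen with earlier results of these data known. Window calls were checked against bedtools 2.31.1 (6115 genes with a BPP gene-end peak by either route). Software was pandas 2.3.3, numpy 2.4.6, matplotlib 3.10.9 and scipy 1.17.1 in Python 3.11.15. Alternatives were other windows, thresholds, list lengths, summits, starts only, and leaving out IgG overlaps or genes with close neighbours.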

Additional observations from a re-analysis of the deposited data

How the results depend on the processing

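Of 238 values recomputed under the alternatives, 180 stayed within 1.5 times the reported count or inside the interval of the reported share, and 58 did not. A peak list has no depth, so 1 threshold can be stricter for some lists than for others. Apart from annotated starts, shares of all protein-coding genes were not counted under the alternatives. The background shares given above belong to the full peak lists with 1 kb windows or flanks.

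With peaks of fold 5 or more, the 55 repair genes had 19 gene-end calls in BPP, 20 in CTR and 3 in IgG, with 13 in both H3K27ac lists, 6 in BPP only, 7 in CTR only and 29 in neither, so that BPP-only genes no longer outnumbered CTR-only genes. Keeping 5000 peaks per list by rank gave 20 in BPP, 21 in CTR and 3 in IgG, with 14 in both, 6 in BPP only, 7 in CTR only and 28 in neither. With the top 10000 peaks of each H3K27ac list, 19 were in neither, BPP-only genes numbered 10 and CTR-only genes 7. With −log10 q of 5 or more, none kept an IgG call, BPP-only genes numbered 12 and CTR-only genes 7. At annotated starts only, 3 had an IgG call. With windows of 500 bp the BPP-only and CTR-only counts were 12 and 7, and with windows of 2 kb 10 and 5. Among the 17 genes whose windows reach no other coding gene's window there were 7 calls in BPP, 8 in CTR and 3 in IgG, with 4 in both, 3 in BPP only and 6 in neither.

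The 74 further repair genes gave 25 BPP, 24 CTR and 0 IgG calls at fold 5 or more (16 in both, 41 in neither), and 21 BPP and 21 CTR calls with the top 5000 peaks (15 in both, 6 in BPP only, 6 in CTR only, 47 in neither). Their IgG calls were 1 with windows of 500 bp, 5 with 2 kb, 0 with −log10 q of 5 or more and 1 at annotated starts.

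By pathway at fold 5 or more, the marked share was 50% for damage signalling, 0% for mismatch repair and 33.3% for base excision repair. With the top 5000 peaks it was 40% for homologous recombination, 0% for mismatch repair and 50% for nucleotide excision repair.

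Over the span, calls at fold 5 or more were 26 in BPP, 24 in CTR and 5 in IgG (18 in both, 6 in CTR only, 23 in neither), and with the top 5000 peaks 26, 24 and 5 (17 in both, 7 in CTR only, 22 in neither). With −log10 q of 5 or more, 8 genes had no span peak and IgG had 0. Far-end calls in CTR were 0 with windows of 500 bp and 6 with 2 kb, where BPP had 7. Thresholds and list lengths leave fewer peaks by construction, and the cause of the other shifts was not tested. No paired analysis was possible because each group had 1 library, and for the same reason none could be left out in turn.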
